A study of Sus scrofa with 2 samples.

Results

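The nuclei described here are pericyte nuclei of the pig left ventricle with little RNA of the cardiomyocyte genes RYR2 and CTNNA3. Other cardiomyocyte RNA was not limited. They were chosen by their measured UMIs of marker genes. A nucleus was a member when RGS5, EGFLAM, GUCY1A2 and KCNJ8 together gave at least 5 unique molecular identifiers (UMIs, each standing for 1 captured RNA molecule) and at least 0.25% of all its UMIs. The cardiomyocyte genes RYR2 and CTNNA3 had to stay under 1%, the endothelial genes FLT1, PECAM1 and VWF under 0.2%, and the fibroblast genes ABCA8, COL1A1 and PDGFRA under 0.2%. MYH11 and ACTA2, which mark smooth muscle, had to give fewer UMIs than RGS5 and EGFLAM. With at least 500 genes and at most 5% mitochondrial UMIs per nucleus, the rule found 530 members among 31664 nuclei kept, 281 of 16725 in the wild-type library and 249 of 14939 in the transgenic library.

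The series holds single-nucleus RNA sequencing (10x Genomics Chromium 3' v3.1) of Bama pig hearts, with 1 library per genotype, each made from frozen free wall of the left ventricle. The wild-type library (WT) comes from wild-type Bama pig. The transgenic library (TG) comes from triple-transgenic Bama pig carrying PNPLA3I148M-GIPRdn-hIAPP, that is, a lipid droplet enzyme variant tied to fatty liver, a dominant negative receptor for the incretin hormone GIP, and human islet amyloid polypeptide. Both groups were fed a high-fat-high-sucrose diet for 12 months, so no library shows the heart without that diet. The promoters of the transgenes, the age and sex of the pigs and the number of pigs behind each library are not given in the sources used here. Genotype, animal and library therefore cannot be told apart, nuclei are not replicates, and no p-value is given. All intervals are 95% intervals that cover counting error only.

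Pericytes are mural cells that sit within the basement membrane of capillaries and touch the endothelium. Endothelial PDGF-B draws them to the vessel through PDGFRB, and Notch ligands on neighbouring cells act on their receptor NOTCH3. KCNJ8 and ABCC9 form their ATP-sensitive potassium channel, and the subunits encoded by GUCY1A1, GUCY1A2 and GUCY1B1 form the soluble guanylate cyclases that answer nitric oxide with cyclic GMP. Vascular smooth muscle cells wrap larger vessels and carry far more of the contractile proteins, with which pericytes share part of their program.

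Members had a median of 2902 UMIs and 1520 genes in WT, against 2520 UMIs and 1481 genes in TG. The lowest member had 795 UMIs in WT and 1976 in TG, and 81 WT members but 9 TG members were under 2000 UMIs. Median mitochondrial shares were 0.662% and 0.891%. The libraries shared 81 barcodes, none of them a member in both; 2 members of each library had a barcode that was a kept nucleus in the other. Levels below are UMIs summed over the members of a library per 1,000,000 nuclear-encoded UMIs (CPM).

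The marker share that chose the members was not alike in the libraries, and it is given as a description only. Its median was 0.918% of UMIs in WT and 0.498% in TG, and its highest value was 3.07% and 1.56%. Just inside the limit, from 0.25% to 0.30%, lay 5 WT and 35 TG members. Just outside it, from 0.20% to 0.25%, lay 7 and 28 nuclei that met every other condition. The TG members thus ran up to the limit without a gap, while few WT nuclei lay near it. At the other limits, 4 WT and 0 TG members had exactly 5 marker UMIs, and 2 and 0 nuclei outside had 4. The lowest nucleus kept had 602 UMIs in WT and 1972 in TG. In TG, 4 marker UMIs therefore could not reach 0.25%, and 5 hardly could. RYR2 and CTNNA3 lay between 0.5% and 1% in 16 and 16 members, and 16 and 9 nuclei were left out for 1% or more. Endothelial or fibroblast markers left out 34 and 38 nuclei. All 4 rule genes were detected in 192 WT members (68.3%) and 164 TG members (65.9%).

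**Figure D1:**
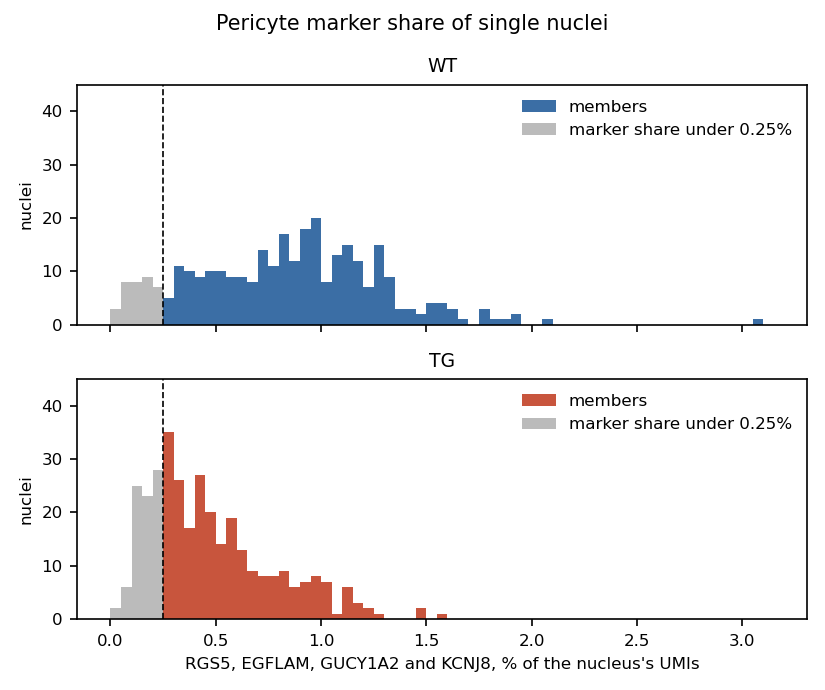
Histogram of the summed share of RGS5, EGFLAM, GUCY1A2 and KCNJ8 in single nuclei of WT (top) and TG (bottom), in bins of 0.05% of UMIs; grey bars are nuclei that met every other condition but lay under the 0.25% limit (dashed line). The WT members centre near their median of 0.918%, whereas TG members are most frequent just above the limit.

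The rule genes themselves were as follows, again as description. RGS5, a regulator of G protein signalling, stood at 2676 CPM in WT and 1504 in TG. EGFLAM (pikachurin, a matrix protein) stood at 2638 and 1573 CPM. GUCY1A2 stood at 2321 and 1778 CPM, and KCNJ8 at 951 and 614. Each was lower in TG, the same side as the marker share.

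Genes outside the rule matched the pericyte label in both libraries, with a wide margin over macrophages and a narrower one over smooth muscle. Of 20 identity genes that the rule did not use, 3 or more were detected in 96.1% of WT and 94.8% of TG members, against 1.56% and 4.89% of macrophage nuclei of the same libraries. NOTCH3 had UMIs in 73.3% of WT and 60.2% of TG members but in 0.212% and 1.12% of macrophage nuclei, which should lack it. With each nucleus thinned to 1000 UMIs, which left out 8 WT members and 12 WT macrophages, the NOTCH3 shares were 46.5% and 33.3% in members and 0.0713% and 0.14% in macrophages. PDGFRB was present in 82.2% and 79.5% of members against 2.55% and 5.59% of macrophages, or in 53.8% and 43.0% against 0.357% and 1.12% after thinning. Smooth muscle nuclei were closer, with NOTCH3 in 29.2% of WT and 58.75% of TG nuclei and PDGFRB in 31.9% and 51.25%. After thinning these shares were 11.3% and 26.25% for NOTCH3 and 15.6% and 23.75% for PDGFRB. Detection of NOTCH3 thus hardly separated TG members from TG smooth muscle. ABCC9, the partner of KCNJ8 in the potassium channel, gave 132 CPM in WT and 85.7 in TG, at or below 15.3 CPM in each of 5 comparison classes (smooth muscle, vascular endothelial, fibroblast, macrophage and cardiomyocyte nuclei). HIGD1B, a mitochondrial membrane protein, stood at 176 and 165 CPM, against 29.8 and 33.2 in smooth muscle nuclei and under 6 CPM in the other 4 comparison classes. Macrophages had more UMIs per nucleus than the members, with medians of 4121.5 and 2937.5.

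Not all textbook pericyte markers were there. ANPEP (aminopeptidase N) had 1 UMI in WT and 0 in TG, which allows up to 3 UMIs. VTN (vitronectin), a marker of brain pericytes, gave 6 and 13 UMIs and did not exceed its level in endothelial nuclei of TG, at 17.8 CPM. CSPG4 (NG2), MCAM and TBX18 were present but shared: CSPG4 stood at 97.6 and 68.1 CPM in members and at 105 and 129 in smooth muscle, and TBX18 at 79.5 and 72.1 in members and 109 and 86.3 in fibroblasts. AGT (angiotensinogen) and PLXDC1 were below their fibroblast level in both libraries, with 892 and 779 CPM of AGT in fibroblasts against 45.6 and 170.1 in members.

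**Figure D2:**
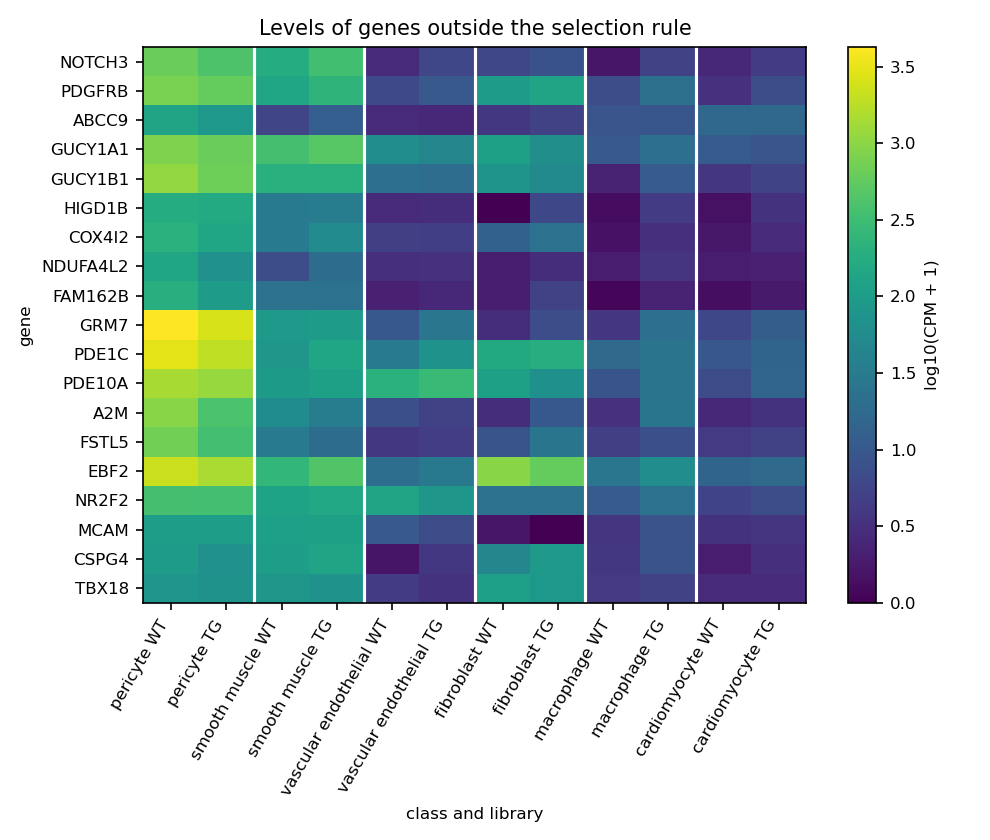
Heat map of log10(CPM + 1) for 19 genes outside the selection rule (rows) in 6 classes of nuclei from each library (columns). The first 9 genes and GRM7 to FSTL5 are brightest in both pericyte columns; CSPG4, MCAM and TBX18 are as bright in smooth muscle or fibroblasts.

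Pericyte nuclei stood above smooth muscle, vascular endothelial, fibroblast, macrophage and cardiomyocyte nuclei for 163 genes in both libraries (1.5-fold or more, the interval leaving out 1, each class in each library). That is 2.73% of the 5979 genes with enough UMIs in all of them. These classes were set by the same kind of rule, so the separation is a description and not a test. GRM7, a metabotropic glutamate receptor, stood furthest apart. Its level was 4255 CPM in WT and 2566 in TG, against 90.8 and 96 in smooth muscle, the next highest of the 5 comparison classes. The 16 WT and 9 TG pericyte nuclei with cardiomyocyte signal, which carry the same marker genes, are not among those classes; they had 2484 and 622 CPM of GRM7. It was detected in 84.0% and 87.6% of members and in 1.13% and 2.79% of macrophages (75.1% and 75.5% against 0.143% and 1.40% after thinning). GRM7 lies on chromosome 13 from 63318002 to 64203982 (Sscrofa11.1).

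Genes of cyclic nucleotide breakdown and ion transport were among the leaders. PDE1C, a calcium- and calmodulin-activated phosphodiesterase of cyclic AMP and cyclic GMP, stood at 3028 and 1920.5 CPM, with 157 and 182 in fibroblasts as the highest comparison class. PDE10A, another phosphodiesterase of both nucleotides, stood at 1421 and 1166 CPM against 204 and 285 in endothelium. SLC12A2, the sodium, potassium and chloride cotransporter NKCC1, stood at 741 and 388 CPM. SLC16A12, a transporter of the monocarboxylate family, reached 385 and 276 CPM. The kainate receptor subunit gene GRIK4 stood at 390.3 and 128 CPM and did not pass 23.5 CPM in any of the 5 comparison classes (511 and 64.3 CPM in the few pericyte nuclei with cardiomyocyte signal).

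A second set encodes proteins of the cell surface, the cytoskeleton and secretion. DLC1, a GTPase-activating protein, stood at 10093 and 7082 CPM, with 3441 and 2071 in fibroblasts. A2M (alpha-2-macroglobulin, a protease inhibitor) stood at 978 and 403 CPM and BMP5, a bone morphogenetic protein, at 668 and 397. FSTL5, SUSD4, ADGRV1, COLEC11, MOB3B, RASD2, the gene of carboxypeptidase M (symbol CPM) and NES (nestin, an intermediate filament protein) were also on the list of 20. TLR5, the receptor for bacterial flagellin, stood at 159 and 146 CPM, and CD4, the T cell coreceptor, at 93.3 and 114 CPM. CD4 was detected in 20.3% of WT and 23.7% of TG members but in 4.24% and 1.82% of macrophage nuclei. After thinning, the CD4 shares were 9.16% and 12.4% of members against 1.28% and 0.14% of macrophages, so pericytes were above this immune class.

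Several other genes of the 163 were picked after their values were seen, because their products act in vessels. EBF2 and NR2F2 encode transcription factors, and they stood at 2198 and 1462 CPM and at 356 and 354 CPM. The neurotrophin gene NTF3 stood at 251 and 140.2 CPM. ENPEP, which trims angiotensin II to angiotensin III, stood at 399 and 268 CPM.

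Against smooth muscle nuclei alone (144 in WT, 80 in TG), 621 of 7260 genes were higher in pericytes in both libraries (8.55%) and 475 were lower (6.54%). LPL, the lipoprotein lipase that frees fatty acids from circulating triglyceride, was among the 10 furthest above, with 1648 and 1436 CPM in pericytes and 67.3 and 159 in smooth muscle. Others of the 10 were GRM7, PDE1C, the carboxypeptidase M gene, FSTL5, SLC16A12, PDE10A, ELOVL6 (a fatty acid elongase) and TNFRSF21. LPL is also a cardiomyocyte gene here, at 1186 and 1027 CPM in cardiomyocyte nuclei.

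Genes far below smooth muscle included those of its contractile and integrin apparatus. ITGA8, an integrin subunit, stood at 30.8 and 32.7 CPM in pericytes and 1541 and 845 in smooth muscle. CNN1 (calponin) gave 6 and 2 UMIs in all members together, against 377 and 151 CPM in smooth muscle. ACTG2 (enteric actin) gave 12 and 1 UMIs, and TGFB3 stood at 35 and 13.6 CPM against 958 and 317. GLDN, FSTL4, KCNB2, GYG2, RGS2 and STAC2 made up the rest of the 10. The contractile gene TAGLN was closer, at 321 and 313 CPM in pericytes and 659 and 649.7 in smooth muscle.

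The members were not uniform. Across 5205 genes with at least 20 UMIs in each library, the variance of UMIs between nuclei relative to Poisson counting had a median of 1.44 in WT and 1.27 in TG, and 411 genes were at 2 or more in both. GRM7, DLC1 and PDE1C, of the 163 genes above all comparison classes, were among the most variable by this measure. So was PRKG1 (the cyclic GMP-dependent kinase), which is not one of the 163. The measure grows with the level of a gene that varies between nuclei, so abundant genes rank high by it. GRM7 ran from 0 CPM through a median of 3424 to 39531 CPM over WT members, and from 0 through 2049.8 to 16329.7 CPM over TG members. Others marked small sets of nuclei: CXCL10, an interferon-induced chemokine, came from 3 WT and 8 TG members, and THBS1 (thrombospondin 1) from 18 and 30. RBPJ was found in 93 and 96 members with a high spread, and its level was 10409.8 CPM in WT macrophages against 524 in WT members. The blood gene HBB and the cardiomyocyte gene MYH7 were spread unevenly as well.

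MYH11 and ACTA2, which the rule limits, also divided the members. Neither gene had a UMI in 92 WT and 84 TG members, and 189 and 165 had at least 1. These sets differed in depth, with medians of 2141 and 3417 UMIs in WT and 2410 and 2505 in TG. NOTCH3 stood at 632 CPM without and 625 with these UMIs in WT, and at 372 and 438 in TG, a difference within the counting intervals in both libraries. MYOCD (myocardin, the coactivator of smooth muscle genes) stood at 8.72 CPM (2 UMIs) without and 54.7 CPM (39 UMIs) with them in WT, but at 109.9 and 64.2 in TG. KCNMA1, the large-conductance potassium channel of smooth muscle, stood at 13.1 and 96.7 CPM in WT and at 8.46 and 10.0 in TG. In WT, 3 nuclei held 54.2% of the UMIs of KCNMA1. The rule used MYH11 and ACTA2 and the sets differ in depth, so these values are a description only, and whether the libraries differ in them was not tested.

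Pericyte nuclei made up 1.68% of WT nuclei (1.49% to 1.89%, exact Clopper-Pearson) and 1.67% of TG nuclei (1.47% to 1.89%), a TG to WT ratio of 0.992 (0.833 to 1.18). This ratio follows where the limits were set. It was 0.588 with a marker share of at least 0.5% (236 and 124 nuclei), and 1.20 among nuclei with at least 2000 UMIs and also after thinning all nuclei to 2000 UMIs. Smooth muscle nuclei had a ratio of 0.622 (0.467 to 0.823) under their own rule. In nuclear RNA, fewer nuclei of a type and less marker RNA per nucleus cannot be told apart by such limits.

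To compare the genotypes within pericytes, a gene was counted as higher or lower when its TG to WT ratio of CPM was at least 1.5 in either direction and the interval of the ratio left out 1. Of 9200 genes whose UMIs over both libraries came to 20 or more, 1208 were higher in TG (13.1%) and 782 were lower (8.5%), and the median log2 ratio of all of them was 0.03. This is the background for every count below. Many of the higher genes were not particular to pericytes by the same call. Of the 1208, 748 were called higher in macrophages, 567 in fibroblasts, 452 in endothelium, 374 in cardiomyocytes and 321 in smooth muscle. The opposite call was met by 21, 53, 38, 75 and 66 of them in the same order. A smaller part of the lower genes met the same call elsewhere, but lower calls were also rarer over all genes in each class. Genes with under 20 UMIs in another class had no call there and count as not shared. Of the 782 lower genes, 206 were called lower in fibroblasts, 128 in cardiomyocytes, 127 in endothelium, 102 in macrophages and 101 in smooth muscle. Called higher instead were 34 in fibroblasts, 91 in cardiomyocytes, 35 in endothelium, 126 in macrophages and 47 in smooth muscle. Over all genes measured in each of these classes, the share called higher was 21.5% in macrophages, 12.8% in fibroblasts, 11.7% in endothelium, 24.3% in cardiomyocytes and 15.6% in smooth muscle. The lower share was 7.49%, 8.72%, 7.47%, 8.38% and 9.39% in the same order. The split of calls in pericytes became 1051 higher and 1421 lower when a profile of the whole library's RNA was taken off the members, and 3400 higher and 134 lower when levels were scaled to the genes that set pericytes apart.

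RNA of genes that mark other cells differed between the libraries in these nuclei. Of 14 abundant cardiomyocyte genes (such as MYH7, MYL2 and NDUFA4), 13 were higher in TG, and their summed level was 4415 CPM in WT and 11811 in TG members. The same sum was 3306 and 9538 in macrophages and 3242 and 10584 in fibroblasts, which are not muscle. Cardiomyocyte nuclei had 12871 and 9944 CPM, so TG members stood above the cardiomyocyte nuclei of their own library for these genes. MYH7, the slow myosin heavy chain, had UMIs in 222 of 281 WT and all 249 TG members, at 1294 and 4293 CPM. Of 23 vascular endothelial markers 15 were higher and 1 lower, with a sum of 3738 and 4803 CPM. Of 16 fibroblast markers 10 were higher and none lower, with a sum of 2752 and 5457 CPM. Of 15 macrophage markers 3 were higher (sum 631 and 840 CPM, LYZ at 0 in both), and of 7 lymphocyte markers 3 were higher (sum 329 and 468). Of 7 Schwann cell and neural markers 2 were higher, of 6 lymphatic endothelial markers 2 were higher and 1 lower, and of 4 adipocyte markers 1 was higher. Of the endothelial markers 6, and of the fibroblast markers 6, were higher in pericytes than in smooth muscle nuclei in both libraries. How much of this RNA came from other cells, and its part in the results that follow, was not tested.

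**Figure D3:**
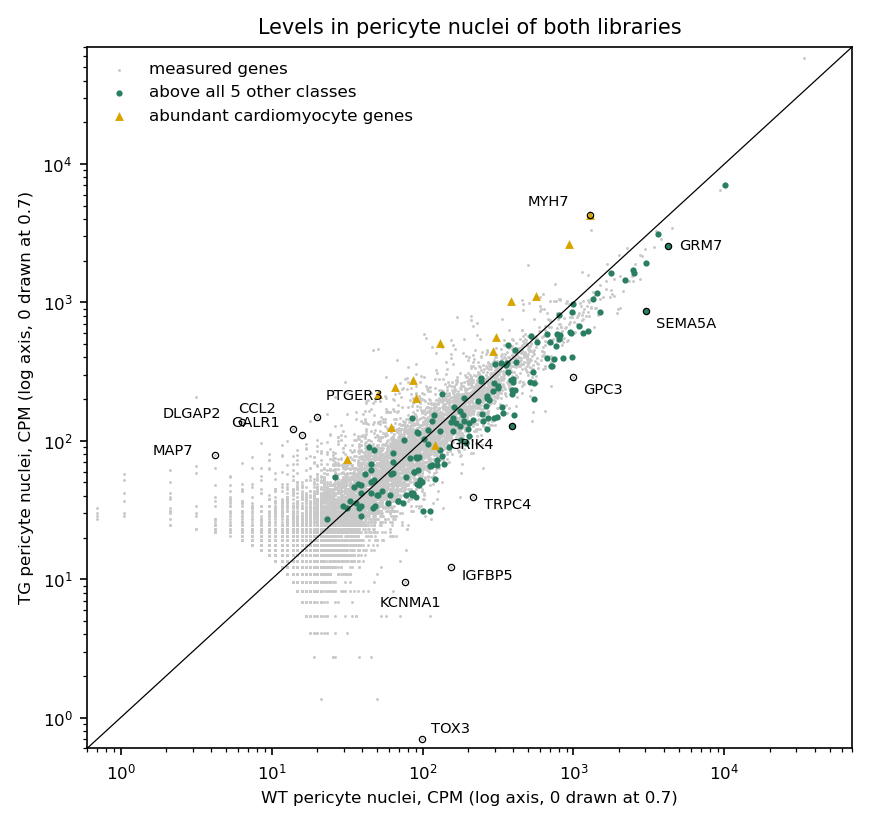
CPM of each measured gene in pericyte nuclei of WT (x) and TG (y), both on log axes, with genes at 0 drawn at 0.7 and the line of equal levels. Green genes (higher in pericytes than in all 5 other classes) lie mostly below the line, by a median log2 of -0.47 that turns to 0.24 once a library-wide profile is taken off, and 13 of the 14 yellow triangles (abundant cardiomyocyte genes) lie above it.

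The genes that set pericytes apart were mostly at lower CPM in TG. Of the 163 genes above all other classes, 66 were lower (40.5%), 5 were higher (3.07%) and 92 were neither, with a median log2 ratio of -0.47. Together they took 7.79% of WT and 5.40% of TG member UMIs, a ratio of 0.694. The median kept its sign with a marker share of at least 0.5% (-0.28, 35 lower and 12 higher), with at least 2000 UMIs (-0.44) and with TMM factors (-0.55). It turned to 0.24, with 42 higher and 7 lower, when a library-wide RNA profile was taken off the members. That step scaled the profile to 48.8% of WT and 90% of TG member UMIs, the latter its cap. Counts that would fall below 0 were set to 0, so the share of UMIs removed was smaller. Scaled to the summed UMIs of these same genes the median was 0.05, near 0 by construction.

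Identity genes outside the rule gave similar ratios. Of 18 measured, 7 were lower, 2 were higher and 9 were neither, with a median log2 ratio of -0.42, which became 0.37 with the library-wide profile taken off and 0.11 when scaled to the 163 genes. NOTCH3 stood at 627 CPM (577 to 679) in WT and 416 (371 to 466) in TG, a ratio of 0.664 (0.577 to 0.764); its log2 ratio of -0.59 became 0.22 with the profile taken off, and it was called lower in 5 of 13 alternative settings. PDGFRB stood at 781 and 587 CPM, a ratio of 0.752 (0.666 to 0.848) that did not reach the fold for a call. GUCY1B1, the shared subunit of soluble guanylate cyclase, stood at 1089 and 675 CPM, a ratio of 0.62 (0.556 to 0.691), with the log2 ratio again above 0, at 0.12, once the profile was taken off.

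Among the smaller mitochondrial and membrane proteins of the pericyte program, some were lower and some were not called. NDUFA4L2, which is induced by hypoxia, stood at 139 CPM in WT and 68.1 in TG. FAM162B stood at 193 and 96.6 CPM, and STEAP4, a metalloreductase, at 146 and 73.5. HIGD1B, by contrast, stood at 176 and 165, a ratio of 0.935 (0.734 to 1.19). MCAM and BGN (biglycan) had ratios of 0.944 (0.691 to 1.28) and 0.971 (0.758 to 1.24). The 2 higher ones, AGT and PLXDC1, are the fibroblast-rich genes named above, and all 10 WT UMIs of PLXDC1 came from 3 nuclei.

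Some genes differed far more than this common ratio and did so in many nuclei. SEMA5A, a transmembrane semaphorin that guides axons and acts on endothelium, was detected in 250 of 281 WT and 187 of 249 TG members. Its level was 3011 CPM (2901 to 3124) in WT and 860.2 (794 to 930.0) in TG, a ratio of 0.286 (0.262 to 0.312). WT was higher in shallow members (3665 against 850 CPM) and in deep ones (2758 against 866). Smooth muscle nuclei had 307 and 343 CPM. Over 13 alternative settings the log2 ratio of SEMA5A stayed between -1.90 and -1.15. The gene lies on chromosome 16 from 72796453 to 73335974.

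GPC3, a heparan sulfate proteoglycan held at the membrane by a lipid anchor, showed the same size of difference. It was detected in 181 WT and 106 TG members, at 992 CPM and 289 CPM, a ratio of 0.291 (0.249 to 0.338). Fibroblasts had the other order, with 182 CPM in WT and 522 in TG. GPC3 lies on chromosome X from 109536495 to 109973605, and its log2 ratio stayed between -2.05 and -1.21 over the settings.

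TRPC4, a receptor-operated cation channel, was found in 92 WT and 21 TG members. It stood at 217 CPM (189 to 249) and 39.5 (26.4 to 56.7), a ratio of 0.182 (0.119 to 0.269). It was lower in TG smooth muscle too, at 125 and 48 CPM, and at most 24.3 CPM in the other comparison classes. GRIK4 stood at 390.3 and 128 CPM, a ratio of 0.328 (0.259 to 0.412), with 140 and 64 nuclei. TRPC4 lies on chromosome 11 from 13300288 to 13519001 and GRIK4 on chromosome 9 from 47639987 to 48095803.

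TOX3, a high mobility group box protein that acts in transcription, was at 0 in TG. It had 94 UMIs in 28 WT members and none in the 249 TG members, where a count of 0 allows up to 3 UMIs or 4.08 CPM. Its level of 99.7 CPM in WT was 24.4-fold that limit, and the exact interval of the WT to TG ratio starts at 19.5. Smooth muscle had 25.1 and 3.69 CPM, and no other comparison class passed 0.836 CPM. The 3 richest WT nuclei held 23.4% of the UMIs, and 77.7 CPM remained without them. TOX3 lies on chromosome 6 from 32492686 to 32609923.

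Further lower genes mostly rested on many nuclei. SH3RF2, a scaffold with SH3 domains, stood at 177 and 39.5 CPM in 100 and 22 nuclei. ADAM22, a member of the ADAM family without protease activity, stood at 539 and 162 CPM in 173 and 80 nuclei. RAB17, a small GTPase of endosome transport, had 77.4 CPM in 58 members of WT and 16.3 CPM in 12 of TG and no more than 1.57 CPM in any of the 5 comparison classes. INKA2, an inhibitor of the kinase PAK4, stood at 71.1 and 13.6 CPM in 51 and 10 nuclei. NREP was lower as well, in 86 and 18 nuclei. EYA1 was lower too, but in only 18 and 3 nuclei, and 3 nuclei held 42% of its WT UMIs.

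Others were lower in more than pericytes, or in few nuclei. SNX30 was lower in the TG nuclei of all 5 comparison classes, for example 675 and 376 CPM in macrophages. POSTN (periostin, a matrix protein of activated fibroblasts) stood at 63.6 and 8.17 CPM in members and 207 and 19.3 in fibroblasts. All 54 WT UMIs of SEMA3E came from 1 nucleus, and under settings that left it out the direction turned. Of the 67 WT UMIs of ANKRD55, 97.0% came from 3 nuclei, and 2.18 CPM remained without them.

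**Figure D4:**
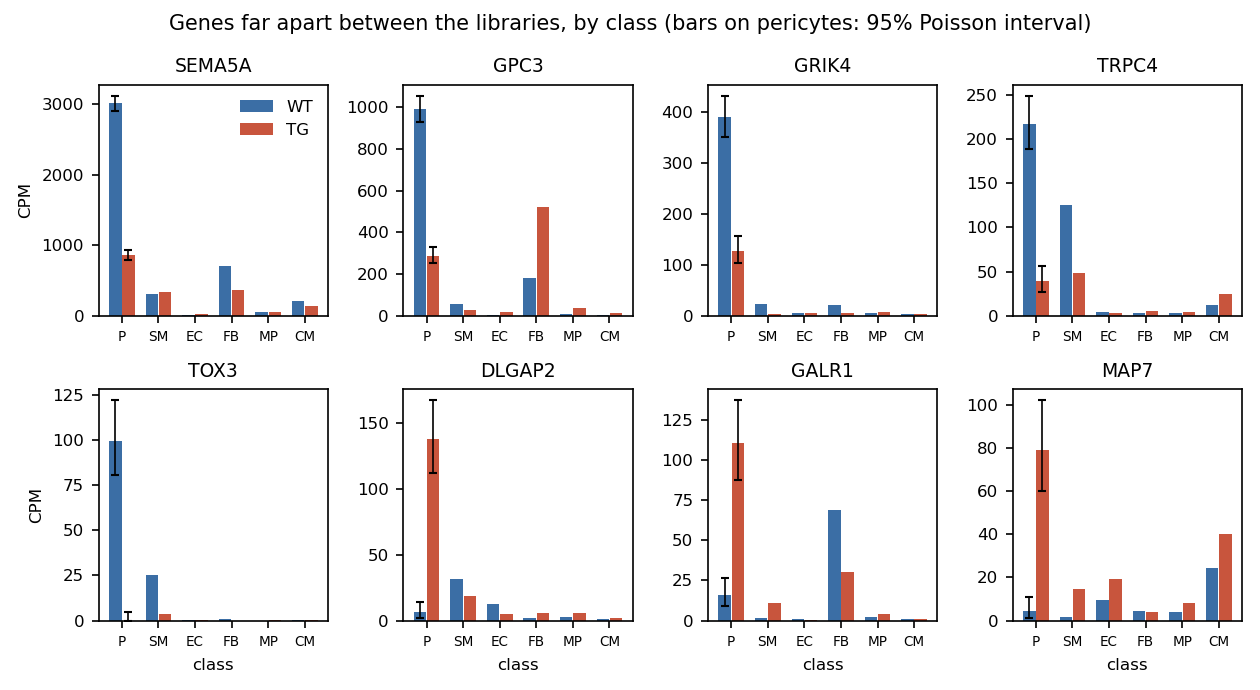
CPM of 8 genes in WT (blue) and TG (red) nuclei of pericytes (P), smooth muscle (SM), endothelium (EC), fibroblasts (FB), macrophages (MP) and cardiomyocytes (CM); error bars, on pericytes only, are 95% Poisson intervals. SEMA5A, GPC3, GRIK4, TRPC4 and TOX3 are higher in WT pericytes, DLGAP2, GALR1 and MAP7 in TG pericytes, and the intervals of the libraries do not overlap.

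Of the genes higher in TG, DLGAP2 stood furthest apart. It encodes a scaffold protein known from the postsynaptic density. It had 6 UMIs in 4 of 281 WT members and 101 UMIs in 73 of 249 TG members. These counts give 6.36 CPM (2.34 to 13.9) and 137 CPM (112 to 167), a ratio of 21.6 (9.59 to 60.3). None of the 5 comparison classes passed 31.3 CPM, and TG macrophages were at 5.78 CPM, with UMIs in 1.82% of nuclei. The 16 WT and 9 TG pericyte nuclei with cardiomyocyte signal had 58.4 and 64.3 CPM. Macrophages and cardiomyocytes also had calls higher in TG at these low levels, while endothelium was lower in TG, at 12.6 and 5.21 CPM. Its log2 ratio stayed between 3.88 and 5.64 over the 13 settings. DLGAP2 lies on chromosome 15 from 32600188 to 33267319.

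GALR1, a receptor for the neuropeptide galanin, had 15.9 CPM in 11 WT members and 110.2 CPM in 57 TG members, a ratio of 6.93 (3.96 to 12.9). Fibroblasts had 69 and 30.4 CPM, the other order. MAP7, which binds microtubules and recruits kinesin, had 4 UMIs in 3 WT and 58 UMIs in 39 TG members, at 4.24 and 78.9 CPM. MAP7 was also called higher in TG cardiomyocytes (24.5 and 40.3 CPM), endothelium (9.67 and 19.4) and macrophages (3.85 and 8.26). GALR1 lies on chromosome 1 from 147442977 to 147466731, and MAP7 on chromosome 1 from 27606021 to 27782754.

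Most of the rest of the 15 highest were muscle or respiratory genes that other TG classes carried too, genes with higher levels in another class, or genes that came from few nuclei. The muscle genes ANKRD1, CRYAB, MYH7, CKMT2 and TCAP and the respiratory gene NDUFA4 were such, with 103 and 593 CPM of ANKRD1 in members and 84.3 and 524 in macrophages. EPHX1 (epoxide hydrolase) rested on 6 and 38 nuclei, with 64 CPM in TG members and 35.5 in TG macrophages. EDA, BMP6 and SVEP1 had higher levels in fibroblasts or endothelium than in members, for example 753 CPM of EDA in TG fibroblasts against 199. CCL2, the monocyte chemokine, stood at 13.8 and 121 CPM in 8 and 21 nuclei, but 3 nuclei held 66.3% of its TG UMIs and 41.5 CPM remained without them. XKR4 had 91.9% of its TG UMIs in 3 nuclei.

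The receptors through which vessels answer hormones and neurotransmitters were mixed. Of 18 measured, 5 were higher in TG, 2 were lower and 11 were neither, with a median log2 ratio of -0.23 that was -0.04 with the profile taken off (16 genes with UMIs left) and turned to 0.30 when scaled to the 163 genes. The endothelin receptors lay within the fold: EDNRA stood at 374 and 308 CPM, a ratio of 0.822 (0.692 to 0.974), and EDNRB at 304 and 358 CPM, a ratio of 1.18 (0.991 to 1.4). AGTR1, the angiotensin II type 1 receptor, stood at 153 and 133 CPM, a ratio of 0.873 (0.669 to 1.14).

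S1PR3, a receptor for sphingosine-1-phosphate, was lower, at 53 CPM in 38 members of WT and 12.2 CPM in 9 of TG. ADORA2A, the adenosine receptor that raises cyclic AMP, was lower too, at 83.8 and 42.2 CPM. The higher ones were PTGER3, RAMP1, RAMP2, S1PR1 and LPAR1, and all 5 were called higher in TG macrophages as well. PTGER3, a prostaglandin E2 receptor, stood at 20.2 and 148 CPM in members, 29.2 and 141 in macrophages and 1519.8 and 2100.0 in cardiomyocytes.

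Nitric oxide and cyclic GMP signalling had no higher gene among 14 measured: 4 were lower and 10 were neither, with a median log2 ratio of -0.48 that turned to 0.12 with the profile taken off (13 genes with UMIs left) and 0.05 when scaled to the 163 genes. The lower genes were GUCY1B1, PDE1C, PDE5A and KCNMA1. PDE5A, the cyclic GMP phosphodiesterase that sildenafil inhibits, stood at 332 and 204 CPM. PRKG1 stood at 9358 and 6511 CPM, a ratio of 0.696 (0.672 to 0.721) that missed the fold. KCNMA1 stood at 76.4 CPM in 16 WT members and 9.53 CPM in 7 TG members, with 54.2% of its WT UMIs in 3 nuclei and 35.9 CPM left without them.

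Channels of potassium and calcium held the largest share of lower genes of any list with at least 5 measured genes, 10 of 21, while 5 were higher and 6 were neither. Their median log2 ratio of -0.54 was -0.20 with the profile taken off (16 genes with UMIs left) and -0.01 when scaled to the 163 genes. Among those not yet named, ANO1, the calcium-activated chloride channel, stood at 297 and 147 CPM in 143 and 78 nuclei, a ratio of 0.495 (0.393 to 0.62). CACNA1H, a T-type calcium channel, stood at 62.6 and 20.4 CPM in 51 and 14 nuclei. TRPC6, a relative of TRPC4, had a ratio of 0.654 (0.512 to 0.833). ITPR1, the calcium release channel of the endoplasmic reticulum, stood at 612 and 382 CPM, and KCNAB1 at 1258 and 802.

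The higher channels were KCNT2, KCNJ2, TRPM3, ATP2A2 and ITPR2. KCNT2, a sodium-activated potassium channel, stood at 27.6 CPM in 15 members of WT and 106 CPM in 47 of TG, with 489.8 and 298 in cardiomyocytes and 13.2 and 28.9 in macrophages. ATP2A2, the calcium pump of the sarcoplasmic reticulum, stood at 268 and 455 CPM in members and 239 and 414 in macrophages.

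Contractile genes were mostly not called. Of 20 measured, 4 were higher, 1 was lower and 15 were neither, and the median log2 ratio was -0.01, of changing sign over the settings. SMTN (smoothelin) was the lower one, at 239.7 and 99.4 CPM in 147 and 59 nuclei. CALD1 (caldesmon) stood at 3518 and 3265 CPM and MYLK, the myosin light chain kinase, at 195 and 154. The higher ones included DES, MYOCD and MYL6, and all 4 were called higher in macrophages too.

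G protein and cyclic AMP signalling moved both ways, with 8 of 27 higher and 9 lower and a median log2 ratio of -0.04 (0.08 with the profile taken off over 21 genes with UMIs left, 0.49 when scaled to the 163 genes). PDE7B, a phosphodiesterase of cyclic AMP, stood at 1978 and 902 CPM, a ratio of 0.456 (0.417 to 0.499). ADCY5, an adenylyl cyclase, stood at 577 and 263 CPM in 188 and 116 nuclei, and PLCB4, a phospholipase C, at 2334 and 1432 CPM. RGS6, a regulator of G protein signalling, was higher, at 463 CPM in 51 members of WT and 883 CPM in 160 of TG, and it was higher in TG smooth muscle as well (589 and 1395 CPM), while macrophages had 9.31 and 27.7. PDE4D and PDE4B were also called higher, at levels below those of macrophages.

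The Notch pathway, through which endothelium keeps mural cells in their state, had 6 lower, 2 higher and 8 other genes of 16. Its median log2 ratio of -0.40 turned to 0.05 with the profile taken off and 0.13 when scaled to the 163 genes. HEYL, a target gene of NOTCH3, stood at 204 and 109 CPM in 121 and 59 nuclei, a ratio of 0.535 (0.407 to 0.698). The receptor NOTCH2 stood at 554 and 275 CPM and the ligand JAG1 at 202 and 133. NOTCH1 and MAML2, a coactivator of the pathway, were the others lower.

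Of the PDGF genes, 2 of 9 were higher and none was lower (median log2 ratio 0.38, near 0 with a marker share of at least 0.5%). NRP1, a coreceptor, stood at 1772 and 1221 CPM, and PDGFD was higher at 113 and 186 CPM, with 303 and 360.0 in macrophages. In the TGF-beta and BMP list 11 of 35 were higher and 3 were lower, with a median of 0.32 that turned to -0.14 with the profile taken off (31 genes with UMIs left) and to -0.02 with a marker share of at least 0.5%. The lower genes were the ligands BMP5, BMP4 and TGFB3. BMP5 stood at 668 and 397 CPM in 189 and 129 nuclei. The higher ones included the target genes ID1, ID2, ID3 and SMAD6, and 6 of the 11 were called higher in macrophages and 7 in endothelium.

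Signals between vessel cells and the basement membrane were mixed. Of 27 angiogenic ligands and receptors, 8 were higher and 3 were lower, namely SEMA5A, NRP2 and SLIT3. SLIT3, a guidance ligand, stood at 116 and 64 CPM. ANGPT1, the TEK ligand that pericytes are known to supply, stood at 107 CPM in 42 members of WT and 161 CPM in 57 of TG, with a ratio (1.14 to 1.98) just under the fold for a call. Of 18 basement membrane genes 6 were higher, all 6 also in macrophages, and COL4A2 was the lower one. COL4A2 stood at 860.1 and 551 CPM, and its partner chain COL4A1 at 499.5 and 361, a ratio of 0.722 (0.619 to 0.841) that missed the fold. Of 27 interstitial matrix genes 8 were higher and 2 were lower (POSTN and LOXL2), and of 32 adhesion genes 9 were higher and none was lower.

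Of 27 mural cell transcription factors, 5 were lower, 4 were higher and 18 were neither (median log2 ratio -0.14, and 0.39 when scaled to the 163 genes). The lower ones included EBF2, PRRX1, MEIS2 and ZEB2. PRRX1 stood at 183 and 96.6 CPM. EBF1 stood at 4522 and 3438 CPM, NR2F2 had a ratio of 0.993 (0.841 to 1.17) and TBX18 of 0.907 (0.626 to 1.31). FOXC1, FOXF2 and FOXL1 had no UMI in either library, which allows up to 3 UMIs each.

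Insulin and insulin-like growth factor genes are of interest for a metabolic model. Of 25 measured, 6 were lower, 3 were higher and 16 were neither, with a median log2 ratio of -0.18 that turned to 0.34 when scaled to the 163 genes. IGFBP5, a binding protein of insulin-like growth factors, stood at 155 CPM in 43 members of WT and 12.2 CPM in 5 of TG. It was lower in TG fibroblasts by more (1649 and 27.4 CPM) and in endothelium (92.3 and 10.3). IGFBP2 stood at 183 and 68.1 CPM in 100 and 40 members, while endothelium had 156 and 184. The insulin receptor INSR stood at 173 and 112 CPM, a ratio of 0.646 (0.489 to 0.847), and the receptor IGF1R at 825 and 532 CPM.

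Fatty acid and oxidative phosphorylation genes held the largest shares of higher genes outside the lists of other cell types. Of 23 fatty acid genes 13 were higher and 1 was lower (median log2 ratio 0.97), and 11 of the 13 were called higher in macrophages and 12 in fibroblasts. CD36, the fatty acid translocase, stood at 751 and 1365 CPM in members and 393 and 979 in macrophages. PPARD, a nuclear receptor for fatty acids, was the lower one, at 73.2 and 25.9 CPM. LPL, which pericytes share with cardiomyocytes, had a ratio of 0.871 (0.805 to 0.943). Of 40 nuclear genes of oxidative phosphorylation 25 were higher and none was lower (median 0.73), with a sum of 2874 and 5476 CPM in members and 2319 and 4749 in macrophages. Of 16 glycolysis genes 6 were higher and none was lower.

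Among stress and immune lists, the interferon, heat shock and chemokine lists held more higher than lower genes. Few hypoxia and clock genes were called either way, with 2 lower and 1 higher of 11 in the clock list. Over all genes, 8.5% were lower and 13.1% were higher. Of 18 interferon response genes 8 were higher, 7 of them also in macrophages, and IFIH1 was lower (82.7 and 50.4 CPM). Of 19 heat shock genes 8 were higher and 1 lower, of 19 chemokine and NF-kB genes 5 were higher, and of 14 immediate early genes 1 was higher. ERRFI1, a feedback inhibitor of the EGF receptor from the glucocorticoid list, was lower, with 43 UMIs in 24 WT and 2 in 2 TG members. In the clock list ARNTL and RORA were lower, at 109 and 51.7 CPM and at 2958 and 1886 CPM, and NR1D2 was higher. Of 19 glucocorticoid genes 4 were higher, of 16 hypoxia genes 3 were lower and 1 higher, of 14 Wnt genes 2 were higher and 1 lower, and of 5 cell cycle genes 1 was higher. The ARNTL call was lower in all 5 comparison classes as well.

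**Figure D5:**
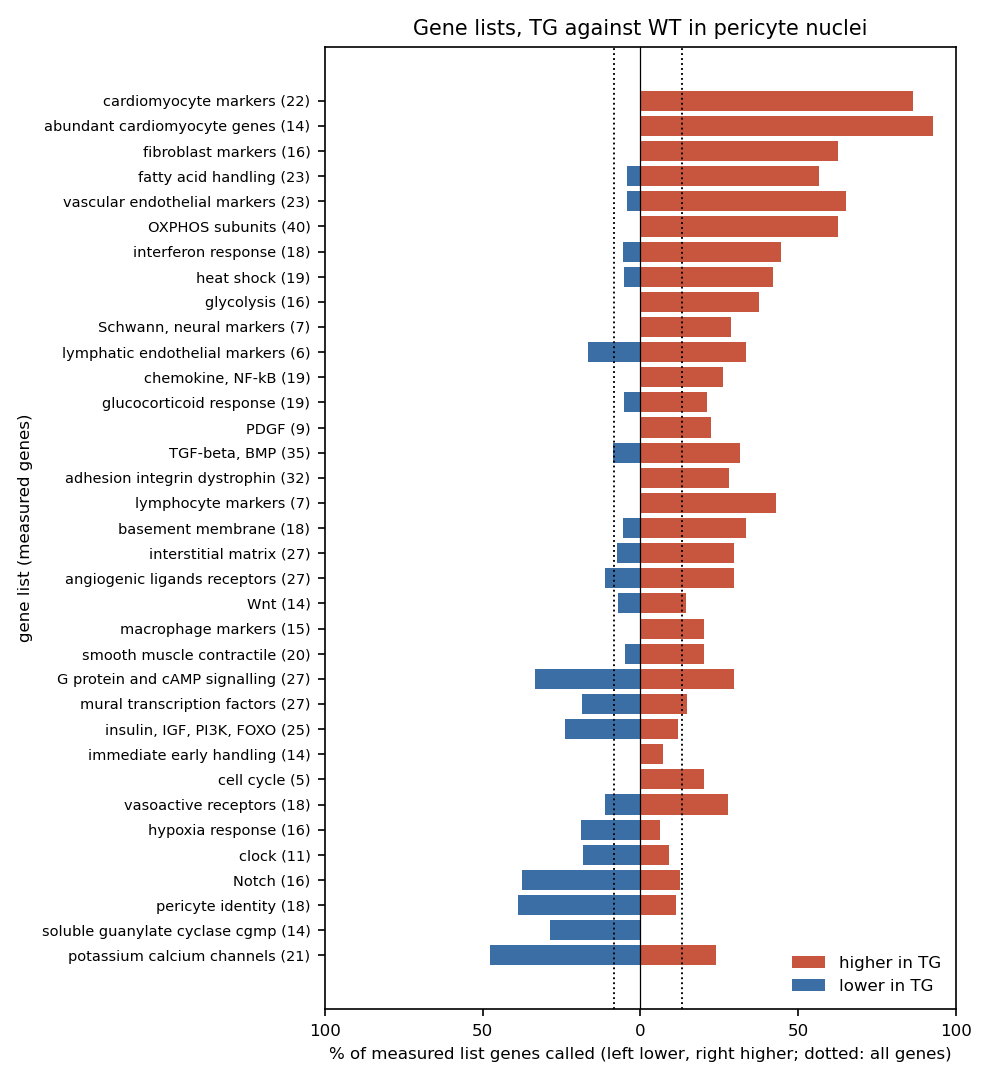
Percent of measured genes of each list that were lower (blue, left) or higher (red, right) in TG pericyte nuclei, with lists ordered by median log2 ratio and their number of measured genes in brackets; dotted lines mark 8.5% and 13.1%, the shares over all 9200 genes. Channels, identity, Notch and cyclic GMP genes lie to the left, with medians that rise to -0.20, 0.37, 0.05 and 0.12 once a library-wide profile is taken off, and cardiomyocyte markers, fatty acid and oxidative phosphorylation genes to the right.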

How the data were processed

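The deposited matrices hold counts of UMIs per gene and nucleus, made with Cell Ranger against Sscrofa11.1; the submitters' processing notes name Cell Ranger 3.1.0 and Seurat 3.1.1, and per the file headers the matrices come from Cell Ranger 5.0.0. Symbols came from the matrices (16498 of 31908 rows), with 841 added from reference names, and coordinates from the RefSeq table of Sscrofa11.1. Whether intronic reads were counted is not given in the sources used here, and no doublet caller was run. UMIs of the members of a library were summed and set per 1,000,000 nuclear-encoded UMIs (942868 in WT, 734715 in TG) with Python 3.11.15, numpy 2.4.6, scipy 1.17.1 and pandas 2.3.3. Levels have exact Poisson intervals, shares exact Clopper-Pearson intervals and ratios exact conditional binomial intervals, all at 95%, and a count of 0 allows 3 UMIs. UMIs correct for amplification but not for free RNA. List medians use genes with at least 20 UMIs and 0.5 added to each count, and leave out genes with no UMIs in either library.

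Members, gene lists and tests were chosen with earlier results of these data known. The text names the 15 highest and the 15 lowest genes in TG by the interval bound nearest to 1. These had at least 50 CPM in the higher library and at least 25% of the highest class there. Also named are 20 genes above all classes, 10 each way against smooth muscle, and the genes of the lists. Ribosomal, mitochondrial and rule genes were left out, and so were XIST and genes of the Y chromosome. Other genes were chosen after their values were seen, and the text says so only for EBF2, NR2F2, NTF3 and ENPEP. Further genes of the lists, such as ANO1, CACNA1H, ITPR1, HEYL, INSR, EDNRA and ANGPT1, are described without such a mark. These further genes were not among the named gene results followed over the alternative settings. Whether few nuclei held most of their UMIs was not checked either. Comparison classes were set by marker limits like those of the members. Alternatives changed limits, depth, scaling (edgeR 4.0.16 in R 4.3.3 for TMM factors) and count minimum. In one, a library-wide RNA profile was taken off at the share that abundant cardiomyocyte genes allow, capped at 90%. The ratio and its call were tested on simulated Poisson counts. These lack the extra variance between nuclei that the members show, so they cannot show how the intervals hold under it. Some genes of the lists are counted but not reported here by name.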

Additional observations from a re-analysis of the deposited data

Results flagged for a closer look

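Among the genes named by rule or by list, 9 were counted as higher in TG pericyte nuclei and lower in TG smooth muscle nuclei, or the reverse; over all genes this held for 113 of the 1990 called in pericytes. Whether the 9 are a larger share of the named genes than this was not tested. The difference between the 2 classes was not tested, and with 1 library per genotype the animal behind each library moves with it.

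Of these, 3 were higher in TG pericytes and lower in TG smooth muscle. COL8A1, a short-chain collagen of vessel walls, had a TG to WT ratio of 3.56 (2.6 to 4.96) in pericytes and 0.217 in smooth muscle, with 57.3 and 204 CPM against 799 and 174. In pericytes 3 nuclei held 75.9% of its WT UMIs and 52% of its TG UMIs, and 14.2 and 100.6 CPM remained without them. PTGER3 had a ratio of 7.36 in pericytes and 0.249 in smooth muscle, where it stood at 341 and 84.9 CPM. PLCB1, a phospholipase C, had ratios of 2.53 and 0.442, with 230.1 and 583 CPM against 1395 and 616. PLCB1 was found in 39 WT and 72 TG pericyte nuclei. In these, 3 nuclei held 41.0% of its WT UMIs and 31.1% of its TG UMIs, and 139 and 413 CPM remained without them.

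The other 6 were lower in TG pericytes and higher in TG smooth muscle. NOTCH3 had a ratio of 0.664 in pericytes and 1.92 (1.44 to 2.55) in smooth muscle, where it stood at 175 and 336 CPM. PDE1C had ratios of 0.634 and 1.69 (1.08 to 2.61), and PDE7B of 0.456 and 1.62 (1.03 to 2.5). In smooth muscle, PDE1C was detected in only 10 of 144 WT and 11 of 80 TG nuclei. LDB2, a LIM domain binding cofactor known from endothelium, had ratios of 0.561 and 2.69, with 1445 and 809.8 CPM in pericytes. PRRX1 had ratios of 0.527 and 2.36 (1.1 to 5.04), from 25.1 and 59.1 CPM in smooth muscle. IFIH1, a sensor of double-stranded RNA, had ratios of 0.609 and 2.48 (1.26 to 4.91). The smooth muscle intervals of PDE1C, PDE7B and PRRX1 thus came close to 1, and they cover counting error only. The NOTCH3 call in pericytes held in 5 of 13 alternative settings and the PDE1C call in 10, and both directions turned with a library-wide profile taken off. The IFIH1 call held in 8 of 13.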

How the results depend on the processing

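No paired analysis was possible because each genotype has 1 library. The TG to WT ratio of pericyte shares, 0.992, was 0.588 with a marker share of at least 0.5%, 1.20 with at least 2000 UMIs and 1.20 with all nuclei thinned to 2000 UMIs. The 1208 higher genes became 749 with a marker share of at least 0.5%, 509 with members thinned to 1000 UMIs, 801 at a ratio of at least 2 and 3400 when scaled to the summed UMIs of the pericyte-enriched genes. The 782 lower genes became 431, 349 and 134 under the last 3 of these, and 1421 with the library-wide profile taken off, where 1051 were higher. The scaling to pericyte-enriched genes and the limit on macrophage and lymphatic markers were chosen after seeing the data. SEMA3E turned to 2.87 with at most 1% mitochondrial UMIs and 2.79 with a marker share of at least 0.5%, where CCL21 was -0.14, KLF4 -0.17 and SFRP1 -1.12 (log2 ratios). With the profile taken off, these log2 ratios turned: ABCC9 0.10, COX4I2 0.20, GUCY1B1 0.12, MAML2 0.015, NOTCH3 0.22, PDE1C 0.15, CCL21 -2.71, FKBP5 -5.93, FRZB -0.57, GNLY -1.98, KLF2 -0.39, NOTCH4 -1.61, P4HA2 -1.61, PDK4 -5.65, PIK3R3 -2.51 and SVEP1 -0.39. Some of these rest on few UMIs left after subtraction. Causes were not tested. In that setting 21 named genes kept no UMIs in either library and have no value. Of 128 named gene results, 127 kept direction and call with median-of-ratios factors, 126 with TMM factors, 124 with at least 2000 UMIs, 96 scaled to the pericyte-enriched genes, 86 with a marker share of at least 0.5%, 78 of 127 thinned and 63 of 107 with the profile taken off. SEMA5A, GPC3, TRPC4, GRIK4, TOX3, IGFBP5, IGFBP2, ADCY5, DLGAP2, GALR1 and MAP7 kept theirs in all 13. Depth limits genes under 20 UMIs, which have no call here.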
